A study of Rattus norvegicus with 4 samples.

Results

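The angiopoietin-TIE system and a set of endothelial markers were followed in articular and xiphoid cartilage of Sprague-Dawley rats, 8 to 10 weeks of age. The genes were the ligands Angpt1 and Angpt2, the receptors Tek (TIE2) and Tie1, and the endothelial markers Pecam1, Esam, Emcn, Plvap, Vwf and Egfl7. They were chosen by symbol, and all 10 were found among the 13554 genes of the deposited count table. Total RNA was sequenced from articular cartilage, which lines the bone ends in joints, and from xiphoid cartilage at the lower tip of the sternum. Neither group carried a treatment or a genetic change per the labels. Each tissue had 2 libraries. The labels do not say whether these came from separate animals or from pools, nor do they name the joint. The p-values therefore measure only the spread between these libraries, and that spread may be technical.

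Blood vessels are lined by endothelial cells, whose surface receptor TIE2 is activated by angiopoietin 1. That ligand is made mainly by cells outside the endothelium, such as pericytes and other mesenchymal cells, and it stabilises vessels. Angiopoietin 2 is made largely by endothelial cells themselves and often acts against angiopoietin 1 at the same receptor, while TIE1 modulates TIE2 and binds neither ligand strongly. Mature hyaline cartilage is itself almost free of vessels, and vessels lie in the perichondrium, the subchondral bone and the marrow around it. In such bulk samples, fewer cells of a type and less RNA per cell cannot be told apart.

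Angpt1 stood apart from the other 9 genes. It was 21.7-fold higher in articular cartilage, whereas the fitted difference of each of the others was between 1.03-fold and 2.05-fold in size. Of the 8 endothelial genes other than the angiopoietins, 5 were higher in xiphoid cartilage: Tek, Pecam1, Esam, Plvap and Egfl7. By contrast, Tie1, Emcn, Vwf and the ligand Angpt2 did not pass the test. Levels are given as CPM, the gene's estimated reads scaled to a common library size after TMM normalisation. They are compared within a gene only, because no transcript lengths were used. The adjusted p-values are from edgeR's quasi-likelihood test, 2-sided, with Benjamini-Hochberg adjustment over the 11202 genes tested and a threshold of 0.05. At that threshold 1 of the 10 genes was called toward articular and 5 toward xiphoid cartilage, against 25.0% and 24.5% of all genes tested, and 60.0% of the genes were called in either direction against 49.5% of all genes. The median log2 fold change of the 10 genes was -0.40, that of all genes tested was -0.02, and a positive value means higher in articular cartilage. In 8 of the 10 genes the libraries of the tissues did not overlap, 2 with articular and 6 with xiphoid cartilage higher. Over all genes tested the libraries did not overlap in 74.9%, 37.1% with articular and 37.8% with xiphoid cartilage higher.

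**Figure D1:**
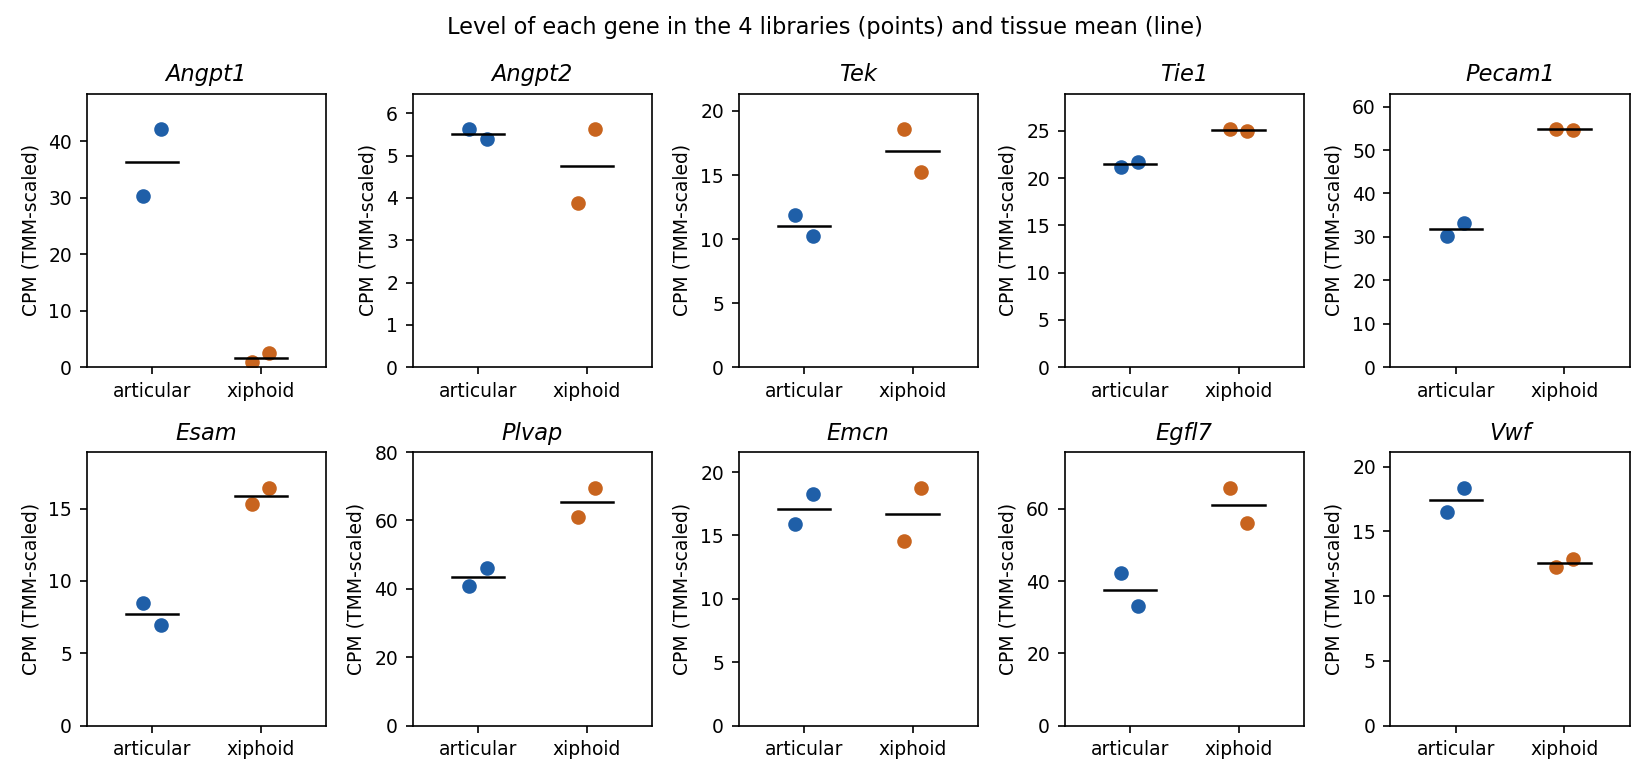
CPM of each of the 10 genes in the 2 articular and 2 xiphoid libraries (points) with the tissue mean (line), each panel with its own axis from 0. The articular libraries of Angpt1 were at 30.4 and 42.1 CPM against 0.941 and 2.47 CPM in xiphoid cartilage, while the libraries of Angpt2 and Emcn overlapped between the tissues.

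The libraries held 7351006 to 8434820 counts in all. Chondrocyte genes took 13.3% and 11.3% of articular and 4.19% and 3.84% of xiphoid counts, led by Col2a1 and Acan, so both tissues carried cartilage transcripts. Col2a1 alone gave 103394 and 85673 of the list's 133968 and 112670 CPM in articular cartilage. In xiphoid cartilage it gave 16347 and 14862 of 41569 and 38695 CPM. Of the 14 genes tested, 7 were called toward articular and 4 toward xiphoid cartilage, 78.6% against 49.5% of all genes tested. The 8 endothelial markers together took 0.0186% and 0.0188% of articular counts and 0.0267% and 0.0270% of xiphoid counts. The counts behind a single gene were therefore small, from 8 for Angpt1 in a xiphoid library to 560 for Egfl7.

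Angpt1 (Entrez gene 89807) encodes angiopoietin 1, the agonist of TIE2. It had estimated counts of 254 and 328 in articular cartilage against 8 and 18 in xiphoid cartilage, which corresponds to 30.4 and 42.1 against 0.941 and 2.47 CPM. Both articular libraries were far above both xiphoid libraries, and the lower articular library was 12.3-fold above the higher xiphoid one. The articular mean was 36.3 ± 8.30 CPM and the xiphoid mean 1.70 ± 1.08 CPM (SD, n = 2), a log2 fold change of 4.44 (SE 0.35, adjusted p = 6.97e-07 by edgeR). The 95% interval of the fold was 12.8 to 36.6. Of the 11202 genes tested, 148 had a larger fitted log2 fold change toward articular cartilage. The size of the fold rests on the 26 counts of the xiphoid libraries, and leaving out xiphoid replicate 1 gave 14.7-fold and leaving out xiphoid replicate 2 gave 38.1-fold. The gene passed the filter on low counts through its articular libraries, since 1 of the 2 xiphoid libraries lay under the filter's 1.24 CPM.

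Angpt2 (Entrez gene 89805) encodes angiopoietin 2, the context-dependent antagonist. Its counts were 47 and 42 in articular against 33 and 41 in xiphoid cartilage, or 5.62 and 5.39 against 3.88 and 5.62 CPM. The second xiphoid library reached the level of the articular libraries, so the tissues overlapped. The log2 fold change was 0.22 (SE 0.33, adjusted p = 0.613 by edgeR), with a 95% interval from 0.704-fold to 1.93-fold. The whole interval of Angpt1, from 12.8-fold up, lay above that of Angpt2. In RefSeq GRCr8 the span of the Angpt2 locus overlaps that of Mcph1, and those of Angpt1, Tie1 and Plvap each overlap a long noncoding RNA gene. Whole gene spans were compared, and whether exons overlap was not checked. Where exons do overlap, reads cannot be told apart if strand was not used.

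The ratio of the ligands within a library does not depend on the scaling of the libraries. Per read of Angpt2 there were 5.40 and 7.81 reads of Angpt1 in articular cartilage but 0.242 and 0.439 in xiphoid cartilage. Both articular ratios were above both xiphoid ratios, and the exact 95% counting intervals did not overlap between tissues (lowest articular bound 3.95, highest xiphoid bound 0.782). The ratio was 19.9-fold higher in articular cartilage. Angpt1 per read of its receptor Tek was 2.57 and 4.10 against 0.0506 and 0.162, a 35.8-fold difference. With 2 libraries against 2, the exact permutation test (2-sided) cannot go below p = 0.333, the value found for both ratios. A ratio of reads between different genes also depends on their transcript lengths, so it is read here across tissues only, and the intervals cover counting error only.

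**Figure D2:**
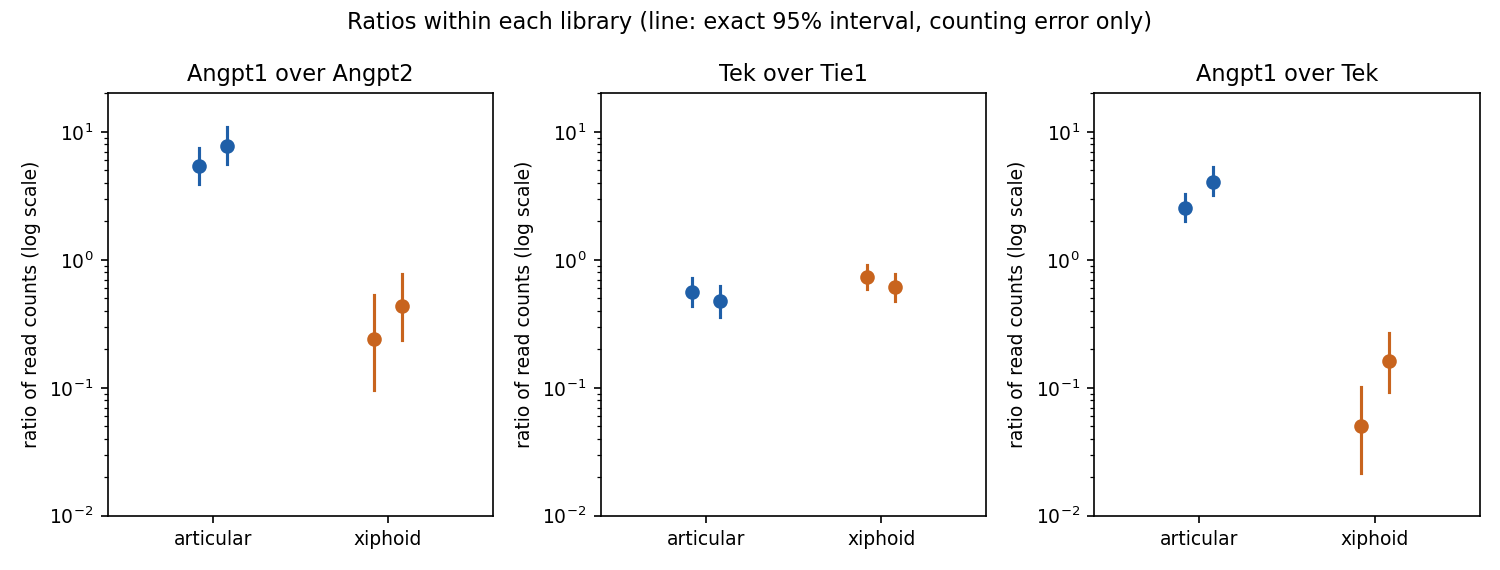
Ratio of read counts within each library (log scale) for Angpt1 over Angpt2, Tek over Tie1 and Angpt1 over Tek, with points for libraries and lines for exact 95% intervals of counting error. Angpt1 over Angpt2 was higher in both articular libraries (5.40 and 7.81) than in both xiphoid libraries (0.242 and 0.439), and Tek over Tie1 lay between 0.473 and 0.738 throughout.

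Genes of endothelial cells commonly carry binding sites for ETS transcription factors, whose core motif is GGAA, in their regulatory DNA. RefSeq promoter windows of assembly GRCr8 were held for 4 of the 10 genes (Egfl7, Plvap, Tie1 and Emcn), and not for Angpt1, Angpt2, Tek, Pecam1, Esam and Vwf. They are shown because these genes share the cell type but not the result: Egfl7 and Plvap were higher in xiphoid cartilage, and Tie1 and Emcn did not pass. The 250 bases before the start are printed 5′ to 3′ in the direction of the gene, with each match to AGGAAG or CGGAAG on either strand in capitals. For Egfl7 the first of 2 windows is shown.
Egfl7 promoter, chr3:29805381-29805630, plus strand: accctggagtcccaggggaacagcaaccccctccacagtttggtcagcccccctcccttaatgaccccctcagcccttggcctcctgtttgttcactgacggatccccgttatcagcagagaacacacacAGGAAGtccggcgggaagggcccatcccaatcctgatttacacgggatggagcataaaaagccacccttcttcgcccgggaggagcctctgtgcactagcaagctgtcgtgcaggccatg
Plvap promoter, chr16:18231280-18231529, minus strand: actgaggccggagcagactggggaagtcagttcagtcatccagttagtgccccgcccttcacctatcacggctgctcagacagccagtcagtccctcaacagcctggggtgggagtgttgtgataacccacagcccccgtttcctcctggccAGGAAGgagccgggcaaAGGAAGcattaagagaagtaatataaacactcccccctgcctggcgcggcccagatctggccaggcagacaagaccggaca
Tie1 promoter, chr5:137304982-137305231, minus strand: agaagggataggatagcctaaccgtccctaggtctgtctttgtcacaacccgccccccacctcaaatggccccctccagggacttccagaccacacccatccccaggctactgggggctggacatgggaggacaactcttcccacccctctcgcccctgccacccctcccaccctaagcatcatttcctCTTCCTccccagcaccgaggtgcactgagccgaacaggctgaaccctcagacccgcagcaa
Emcn promoter, chr2:228564289-228564538, plus strand: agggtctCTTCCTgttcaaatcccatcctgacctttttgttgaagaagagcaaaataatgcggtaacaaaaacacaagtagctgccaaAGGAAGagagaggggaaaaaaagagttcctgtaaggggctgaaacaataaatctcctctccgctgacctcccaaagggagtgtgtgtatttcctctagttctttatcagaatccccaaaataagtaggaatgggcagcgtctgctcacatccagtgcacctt
AGGAAG was found 1 time before Egfl7, starting 120 bases before the start, and 2 times before Plvap, 98 and 81 bases before it. Tie1 held it 1 time on the opposite strand, 61 bases before the start. Emcn held it 2 times, 162 bases before the start and, on the opposite strand, 243 bases before it. CGGAAG was found in none of the 4 windows shown, and the second Egfl7 window held neither motif. Either motif was present in 39.4% of 33469 RefSeq promoter windows of this length and AGGAAG in 29.5%, so a match is common. The genes that were called and those that did not pass both held AGGAAG.

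The receptors differed less between the cartilages than Angpt1. Tek (Entrez gene 89804), the angiopoietin receptor TIE2, had 99 and 80 articular against 158 and 111 xiphoid counts, or 11.8 and 10.3 against 18.6 and 15.2 CPM. Both xiphoid libraries were higher, and the fold was 1.53 in their favour (log2 fold change -0.61, SE 0.23, adjusted p = 0.0419 by edgeR). This call was close to the threshold: the adjusted p was 0.126 with DESeq2, 0.0575 with upper-quartile factors and 0.0511 with a mean of at least 5 CPM. Leaving out xiphoid replicate 1 gave 0.311, leaving out xiphoid replicate 2 gave 0.0584 and leaving out articular replicate 2 gave 0.108, at log2 fold changes of -0.45, -0.73 and -0.51.

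Tie1 (Entrez gene 89806), the orphan receptor that partners TIE2, was at 21.2 and 21.7 against 25.2 and 24.9 CPM, from 169 to 214 counts a library. The xiphoid libraries were both slightly higher, but the difference did not pass (log2 fold change -0.22, SE 0.18, adjusted p = 0.338 by edgeR), with a 95% interval from 0.647-fold to 1.13-fold. Tek gave 0.559 and 0.473 reads per read of Tie1 in articular and 0.738 and 0.610 in xiphoid cartilage, a 1.30-fold difference with overlapping counting intervals (exact permutation p = 0.333, 2-sided). In the edgeR fit the ligand and its receptor therefore lay on opposite sides: Angpt1 was higher in articular and Tek in xiphoid cartilage. The Tek call was close to the threshold and was lost in several other fits.

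The junction molecules were both higher in xiphoid cartilage. Pecam1 (Entrez gene 29583), the adhesion molecule CD31 of endothelial cells, platelets and some leukocytes, was at 30.1 and 33.3 CPM in articular against 54.8 and 54.7 CPM in xiphoid cartilage. These rested on 252 and 259 against 466 and 399 counts, and the gap between the tissues was far wider than that within either. The fold was 1.73 (log2 fold change -0.79, SE 0.16, adjusted p = 0.00155 by edgeR). Esam (Entrez gene 300519), an adhesion molecule of endothelial tight junctions and platelets, was at 8.49 and 6.94 CPM against 15.3 and 16.4 CPM, from 71 and 54 against 130 and 120 counts. Its 2.05-fold difference was the largest toward xiphoid cartilage of the 10 genes (log2 fold change -1.04, SE 0.24, adjusted p = 0.00367 by edgeR). Esam was also the only one of the 5 that passed a test against a fold of 1.5 (glmTreat, adjusted p = 0.0443), where Pecam1 had an adjusted p of 0.113.

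The surface glycoproteins parted. Plvap (Entrez gene 56765), which forms the diaphragms of fenestrae and caveolae, was at 40.9 and 46.2 against 61.0 and 69.6 CPM, from 342 to 519 counts. The libraries did not overlap, and the fold was 1.5 toward the xiphoid side (log2 fold change -0.58, SE 0.16, adjusted p = 0.0101 by edgeR). Without xiphoid replicate 2 the adjusted p was 0.135 with a log2 fold change of -0.47. Emcn (Entrez gene 295490), endomucin, a sialomucin of venous and capillary endothelium that also marks vessels of growing bone, was at 15.9 and 18.2 CPM against 14.6 and 18.8 CPM, from 124 to 142 counts. The xiphoid libraries lay on either side of the articular ones, with a log2 fold change of 0.04 (SE 0.22, adjusted p = 0.906 by edgeR). Its 95% interval ran from 0.737-fold to 1.43-fold.

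The secreted proteins also parted. Egfl7 (Entrez gene 245963), an endothelial matrix protein that guides vessel tube formation, was at 42.2 and 33.0 against 65.9 and 56.2 CPM, from 353 and 257 against 560 and 410 counts. Both xiphoid libraries were higher. The fold was 1.62 (log2 fold change -0.70, SE 0.18, adjusted p = 0.00619 by edgeR), and without xiphoid replicate 1 the adjusted p was 0.0744 at a log2 fold change of -0.57. The span of the Egfl7 locus overlaps that of Agpat2, a lipid-synthesis gene, in RefSeq GRCr8, and overlap of exons was not checked. No source used here says whether counting took strand into account. Vwf (Entrez gene 116669), the platelet-binding protein stored by endothelial cells and megakaryocytes, was at 16.5 and 18.4 CPM against 12.2 and 12.9 CPM, from 138 and 143 against 104 and 94 counts. It was the only endothelial marker of the 8 whose articular libraries both lay above the xiphoid ones, and it did not pass (log2 fold change 0.47, SE 0.21, adjusted p = 0.0853 by edgeR). Its 95% interval, which is not adjusted for the number of genes, ran from 1.01-fold to 1.92-fold.

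**Figure D3:**
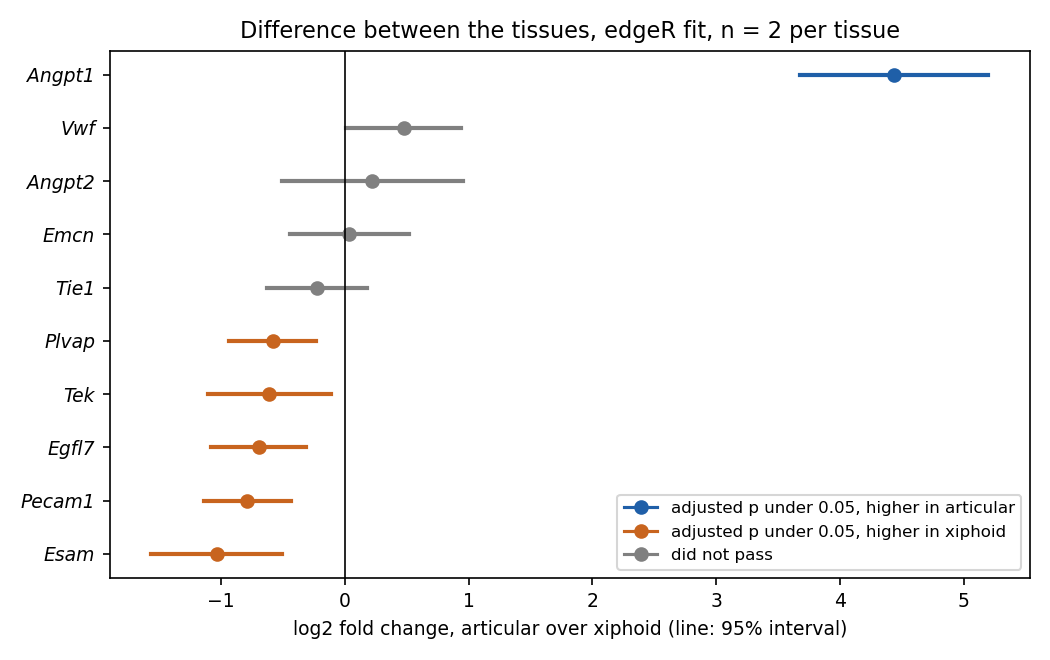
Log2 fold change of the 10 genes, articular over xiphoid cartilage, from the edgeR fit with n = 2 per tissue. Points are fitted values, lines are 95% intervals and colours give the call at an adjusted p under 0.05. Angpt1 at 4.44 lies apart from the other 9, which range from -1.04 to 0.47.

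Because most of these markers share a cell type, each was also set against the summed reads of 5 other endothelial genes in the same library: Cdh5, Kdr, Flt1, Cldn5 and Eng. Cldn5 gave 56 and 41 of the 841 and 696 counts of that sum in articular cartilage. In xiphoid cartilage it gave 368 and 275 of 1278 and 1104. The ratios therefore depend on Cldn5, itself 6.74-fold higher in xiphoid cartilage, and a sum without it was not run. Overlap per read of this sum does not show that a marker was level per endothelial read. Per read of that sum, Tek, Pecam1, Plvap and Egfl7 overlapped between the tissues, with log2 differences of 0.06, -0.12, 0.09 and -0.04. Vwf gave 0.164 and 0.206 reads in articular against 0.0814 and 0.0851 in xiphoid cartilage, a 2.21-fold difference, and Emcn 0.158 and 0.204 against 0.0970 and 0.124, a 1.64-fold difference. Tie1 and Angpt2 also lay higher in both articular libraries, by 1.36-fold and 1.88-fold. Esam was the one marker with lower values in both articular libraries, 0.0844 and 0.0776 against 0.102 and 0.109. Angpt1 was at 0.302 and 0.471 against 0.00626 and 0.0163, a 37.3-fold difference. The exact permutation p (2-sided) was 0.333, the smallest possible, for each ratio that did not overlap. With all 42 other endothelial genes tested as the reference, Tek, Pecam1, Plvap and Egfl7 lay lower in both articular libraries, Tie1 turned to a log2 difference of -0.30 and Emcn and Angpt2 overlapped. Apln alone made up 40.4% and 33.3% of that reference in articular against 0.354% and 0.43% in xiphoid cartilage. Without Apln, left out after its values were seen, the log2 differences were -0.02 for Tek, -0.20 for Pecam1, 0.00 for Plvap, -0.12 for Egfl7 and 0.36 for Tie1. Tek, Plvap and Egfl7 then overlapped between the tissues. Tie1 stayed higher in both articular libraries, and Pecam1 stayed lower there, at 0.04816 and 0.04673 against 0.05705 and 0.05219.

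The 5 genes of that sum did not move as one. Cldn5, a claudin of endothelial tight junctions, was at 6.70 and 5.27 against 43.3 and 37.7 CPM (adjusted p = 8.6e-07 by edgeR). Eng, the TGF-beta co-receptor endoglin, was at 34.5 and 33.7 against 58.6 and 65.3 CPM (adjusted p = 0.000787 by edgeR). Kdr, the main VEGF receptor, lay the other way, at 20.5 and 20.6 against 14.8 and 11.8 CPM (adjusted p = 0.0298 by edgeR, 0.239 without xiphoid replicate 2 and 0.0832 with DESeq2). Cdh5, the adherens junction cadherin, and Flt1, a decoy and signalling receptor for VEGF, did not pass, at log2 fold changes of -0.37 and 0.32. Without articular replicate 1, Cdh5 was called higher in xiphoid cartilage (adjusted p = 0.00851).

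The other genes of angiopoietin-TIE signalling were mixed. Of 18 listed genes, 16 were matched and tested, and Ptprb and Svep1 were not analysed here. Of the 16, 3 were called toward each tissue and 10 did not pass, so 37.5% were called against 49.5% of all genes tested, with a median log2 fold change of -0.01. Among those higher in articular cartilage were Pik3ca, a catalytic subunit of PI3-kinase, at 48.9 and 64.3 against 22.8 and 22.3 CPM (log2 fold change 1.33, adjusted p = 9.21e-05 by edgeR) and the integrin subunit Itga5 (0.85). Higher in xiphoid cartilage were Nos3, the endothelial nitric oxide synthase, at 3.83 and 4.11 against 7.41 and 8.22 CPM (log2 fold change -0.97, adjusted p = 0.0193 by edgeR), and the adaptors Grb14 (-0.72) and Shc1 (-0.51).

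Some of these calls were lost in smaller or other fits while the fold changes moved little. Nos3 had an adjusted p of 0.0577 without articular replicate 1 (log2 fold change -0.92), 0.0965 without xiphoid replicate 2 (-0.89) and 0.0767 with DESeq2 (-0.97). Shc1 had an adjusted p of 0.102 without xiphoid replicate 1 (-0.49) and 0.099 without xiphoid replicate 2 (-0.50), so that only Grb14 remained called toward xiphoid cartilage without xiphoid replicate 2. The third angiopoietin of rodents, Angpt4, was at 1.79 and 2.31 against 3.76 and 3.84 CPM, from 33 and 60 counts in all, and did not pass (log2 fold change -0.89, adjusted p = 0.0985 by edgeR). The others that did not pass were Grb2, Foxo1, Klf2, Akt1, Pik3r1, Ptpn11, Dok2, Tnip2 and Itgb1, with log2 fold changes from -0.18 to 0.36. Itgb1, an integrin subunit, was called higher in articular cartilage without articular replicate 1 (log2 fold change 0.52, adjusted p = 0.00486). Many of them are expressed by most cell types.

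A wider list of endothelial genes held members called in either direction. Of 52 listed genes, 46 were matched and 42 tested, of which 19 were called toward xiphoid and 8 toward articular cartilage, while 15 did not pass. This gave 64.3% called against 49.5% of all genes tested, and a median log2 fold change of -0.46 against -0.02. Gpihbp1, which anchors lipoprotein lipase to the capillary wall, was at 43.7 and 39.5 CPM in xiphoid and 2.63 and 2.06 CPM in articular cartilage (log2 fold change -4.14, adjusted p = 6.06e-08 by edgeR). The tetraspanin Tspan18 (-2.94), Cldn5 (-2.75), Ramp2, a receptor partner for adrenomedullin (-2.21), and Tm4sf1 (-1.19) were the others with the lowest adjusted p toward xiphoid cartilage. The endothelial SOX factors Sox7 (-2.07), Sox17 (-1.88) and Sox18 (-0.96) were all called on the same side, although Sox18 had an adjusted p of 0.284 without xiphoid replicate 2.

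Toward articular cartilage the largest difference was that of Apln, which encodes the peptide apelin, a ligand for an endothelial receptor. It was at 424 and 356 against 3.41 and 4.52 CPM (log2 fold change 6.62, SE 0.22, adjusted p = 4.01e-10 by edgeR), while its receptor gene Aplnr did not pass (log2 fold change -0.31, adjusted p = 0.271). Which cells gave the Apln reads was not tested. Among genes at 5 CPM or more in the higher tissue, the next lowest adjusted p on that side were those of the junction molecule Jam2 (1.58), the ETS factor Erg (1.29), which joint chondrocytes also express, the blood and vessel factor Tal1 (2.07, and 2.88 without xiphoid replicate 1) and the arterial ligand Efnb2 (1.5). Efnb2 had an adjusted p of 0.0873 without articular replicate 1. Below 5 CPM, Calcrl, the receptor that Ramp2 partners, was also higher in articular cartilage, at 2.27 and 3.21 against 0.470 and 0.548 CPM (log2 fold change 2.40, adjusted p = 0.00566 by edgeR), opposite to Ramp2.

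Genes of vessel subtypes, picked from the list after their values were seen, gave no single order. The arterial connexins Gja4 (-1.54) and Gja5 (-1.73) and the venous factor Nr2f2 (-1.5) were higher in xiphoid cartilage, whereas the arterial Dll4 and Notch4 did not pass. Gja4 had an adjusted p of 0.058 without xiphoid replicate 1 and a log2 fold change of -2.28 without articular replicate 1. Gja5 was at 0.051 without articular replicate 2, 0.17 without xiphoid replicate 2 and 0.0586 with DESeq2. Of the lymphatic genes, Prox1 had 0 counts in articular and 5 in xiphoid cartilage and was not tested, and Lyve1 and Flt4 did not pass. Robo4, Sele and Stab2 were also too low to be tested.

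**Figure D4:**
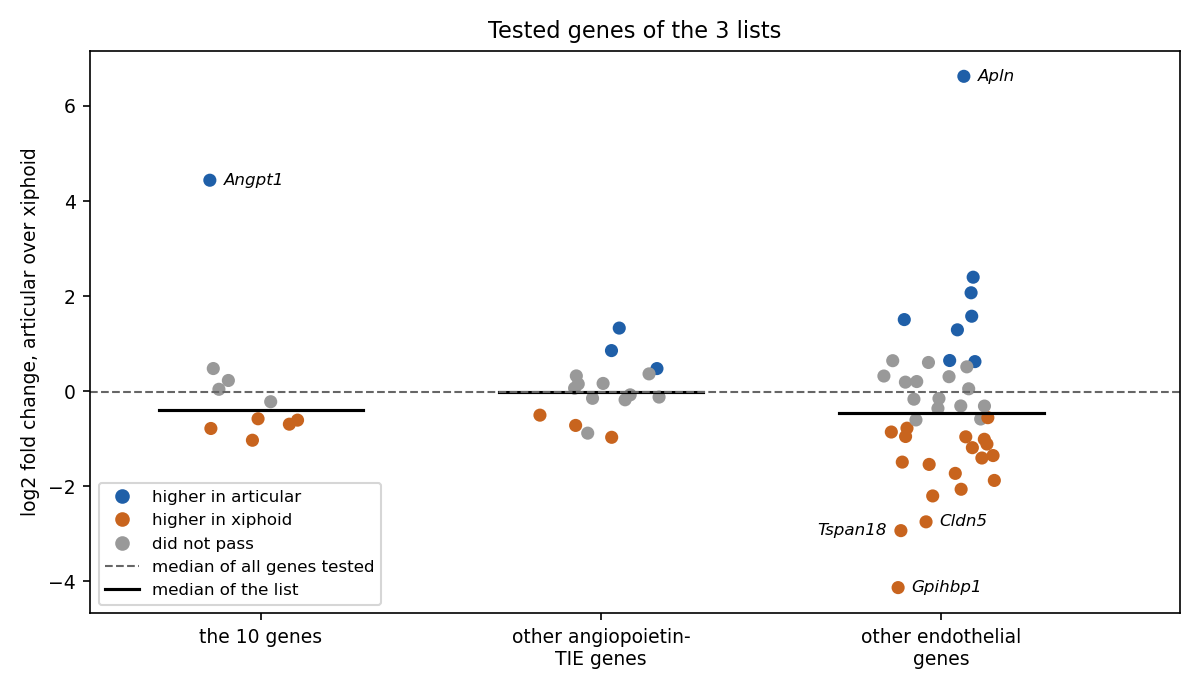
Log2 fold change (articular over xiphoid) of the 10 genes, of 16 other angiopoietin-TIE genes and of 42 other endothelial genes tested, with colours for the call, the median of each list (solid line) and the median of all genes tested (dashed line). Angpt1 (4.44) and Apln (6.62) lie high above their lists, whose medians are -0.40 and -0.46, and the median of the angiopoietin-TIE genes is -0.01.

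Markers of other tissues differed between the same libraries, and their part in the results above was not tested. Of all genes tested, 25.0% were called toward articular and 24.5% toward xiphoid cartilage. The articular libraries, in which Angpt1 was high, carried more bone and marrow transcripts. Erythroid markers were higher there in 9 of 9 tested genes, led by Alas2 and Slc4a1, with a summed level of 203 to 214 CPM against 7.53 to 8.47 CPM and Gata1 at 0 in xiphoid cartilage. Osteoclast markers were higher in 5 of 5 (1924 to 2012 against 142 to 151 CPM, led by Acp5 and Ctsk), with Atp6v0d2, Calcr and Oscar at 0 in xiphoid cartilage. Osteoblast markers were higher in 8 of 9, with Phex at 0 in xiphoid cartilage. The exception was Col1a1, which fibroblasts also express, at 5516 and 5979 against 5961 and 6495 CPM (log2 fold change -0.12, adjusted p = 0.562 by edgeR). It held most of the list's sum of 9156 to 9862 against 6001 to 6537 CPM. Without Col1a1, a choice made after seeing the values, the sum was 4346 and 3176 against 39.3 and 42.7 CPM, led by Ibsp. Macrophage markers were higher in 2 of 8, Csf1r among them, and lower in 1 (152 to 153 against 111 to 121 CPM), and C1qa did not pass. That was 37.5% called in either direction, below the 49.5% of all genes tested.

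Megakaryocytes and platelets can also carry Pecam1, Esam, Vwf and Angpt1 transcripts. Of 17 listed markers, 9 were matched and 2 tested: Itgb3, which osteoclasts also express, was higher in articular cartilage (log2 fold change 5.84), and Selp, which endothelial cells also express, did not pass (-0.30). The summed level was 40.1 and 41.0 against 4.23 and 4.93 CPM, of which Itgb3 alone made up 34.1 and 32.5 CPM in the articular libraries. Without Itgb3 the sum was 5.98 and 8.48 against 3.17 and 4.93 CPM. The genes too low to be tested had few counts in all: Clec1b 22 in articular against 2 in xiphoid cartilage, Gp5 18 against 1, Gfi1b 15 against 0, Gp1ba 5 against 0, Gp9 5 against 3, Treml1 5 against 4 and Pf4 16 against 17.

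The xiphoid libraries, in which 5 endothelial markers were higher, carried more skeletal muscle, adipocyte and fibroblast transcripts. Whether these tissues gave the endothelial reads was not tested. Of all genes tested, 24.5% were called toward xiphoid cartilage and 49.5% in either direction. Skeletal muscle markers were higher there in 10 of 10 tested genes (8678 and 8799 against 24.8 and 34.5 CPM, led by Acta1 and Ckm), with Myh2 and Pvalb at 0 in articular cartilage. Adipocyte markers were higher in 9 of 9 (2763 and 3371 against 87.5 and 102 CPM, led by Fabp4, which capillaries also express, and Cfd), with Lep at 0 in articular cartilage. Fibroblast markers, led by Gsn and Col3a1, were higher in xiphoid cartilage in 7 of 10 and lower in 1, at 16576 and 17786 against 1866 and 1994 CPM. Schwann cell markers were higher in 3 of 6 (1486 and 1534 against 366 and 417 CPM), but S100b, which chondrocytes also express, held 1455 and 1509 CPM of the xiphoid sums and Prx did not pass, with Sox10 at 0 in xiphoid cartilage. Set against these lists, the summed level of the 8 endothelial markers differed little, at 187 and 188 CPM in articular and 268 and 269 CPM in xiphoid cartilage.

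**Figure D5:**
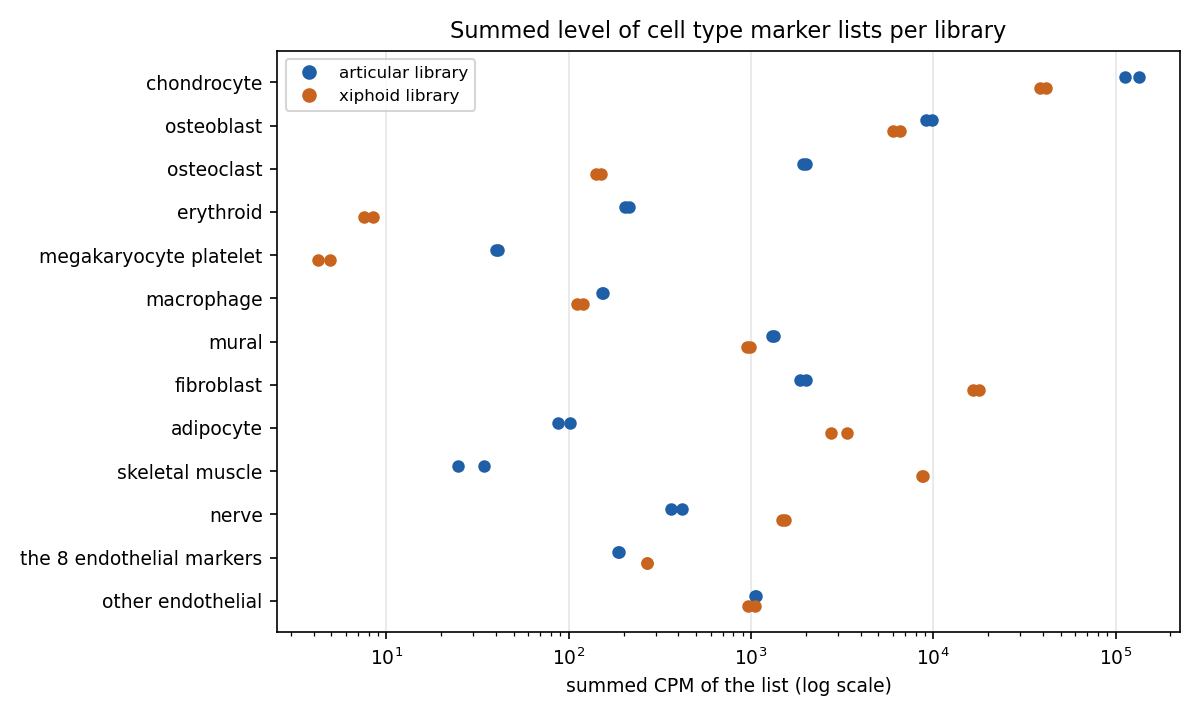
Summed CPM (log scale) of each marker list in the 2 articular and 2 xiphoid libraries, one point per library. Erythroid and osteoclast lists are higher in articular cartilage, skeletal muscle, adipocyte and fibroblast lists are higher in xiphoid cartilage, and the 8 endothelial markers lie at 187 to 188 against 268 to 269 CPM.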

How the data were processed

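The deposited table held, per the file headers and the values, an expected count per gene and library with no normalization (3.91% of values were not whole at a tolerance of 1e-09). Build rn6 is listed with RSEM 1.2.12, HISAT2 2.0.4, Bowtie2 2.2.6 and StringTie 1.2.1, with no role or order, per the submitters' processing notes. Strandedness and the splitting of reads between similar transcripts are not given in the sources used here.

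Counts were rounded, filtered with filterByExpr by tissue (11202 of 13554 genes tested, including all 10 members) and scaled by TMM. Articular was tested against xiphoid cartilage in edgeR 4.0.16 (glmQLFit, robust, and glmQLFTest, R 4.3.3), with tissue as the only term. The fit had 2 residual and a median of 10 prior degrees of freedom. Standard errors are the log2 fold change divided by the square root of F, and intervals are 95% and unadjusted. Ratios between genes used the counts, with exact Clopper-Pearson bounds turned into ratios. The procedure was tested on simulated data. Replicate libraries differed by more than sampling noise (chi-square per degree of freedom 25.6 and 18).

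Members and gene lists were chosen with earlier results of these data known. Named genes were the 10 members, the matched angiopoietin-TIE genes (1 counted in the list is not reported here by name), the 5 reference genes, the 5 other endothelial genes with the lowest adjusted p in each direction at 5 CPM or more, and the 2 highest genes of each other list. Sox7, Sox17, Sox18, Aplnr, Calcrl, the vessel subtype genes and those with too few counts were named after their values were seen. Alternatives were other scalings and filters, DESeq2 1.42.0, limma-voom (limma 3.58.1), glmTreat, a replicate block and leaving out each library.

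RefSeq GRCr8 tables matched all 10 members by gene identifier. They served for overlapping genes and promoter windows only.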

Additional observations from a re-analysis of the deposited data

How the results depend on the processing

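The direction and the call of Angpt1, Esam and Tie1 were the same under all 13 alternatives, with log2 fold changes of 3.88 to 5.25, -1.19 to -0.90 and -0.24 to -0.18. Among the called genes, Tek lost its call under 7 of the 13, Plvap and Egfl7 under 2 each and Pecam1 under 1, glmTreat, which asks for more than a 1.5-fold difference. Without 1 library, Angpt2 ranged from -0.02 to 0.52 and Emcn from -0.13 to 0.24: Angpt2 turned to -0.02 without xiphoid replicate 1, and Emcn to -0.06 without articular replicate 2 and -0.13 without xiphoid replicate 1. These 2 genes passed under no alternative, and the cause was not tested. Leaving out 1 library gave 3 to 5 members higher in xiphoid cartilage and 1 to 3 of the angiopoietin-TIE genes, where the lone library of a tissue is assumed to vary like the others. It gave 1 member higher in articular cartilage each time, and 2 to 4 angiopoietin-TIE genes. Over all genes the same fits called 2070 to 3041 toward xiphoid and 2235 to 2952 toward articular cartilage. By its construction glmTreat called fewer: 1 member higher in xiphoid cartilage, 1 angiopoietin-TIE gene higher in articular and 0 in xiphoid cartilage (1 at an unadjusted p under 0.05, where edgeR's plain test, limma-voom and DESeq2 each had 3, of which 3, 3 and 2 passed the adjusted threshold), and 1686 and 1538 of all genes. With a mean of at least 5 CPM, 5 other endothelial genes were higher in articular cartilage, of 35 tested, against 8 of 42 in the main fit. Tal1, Efnb2 and Calcrl, called in the main fit, were not tested under that filter. Of all genes, 2312 of 9391 tested were called toward articular cartilage with it.

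With a replicate block, 2 members were higher in articular cartilage, because Vwf passed (adjusted p = 0.0417). The libraries share only a number: the labels state no pairing, and the differences between replicates 1 and 2 correlated at 0.304 across genes between the tissues. Itgb1 also passed (adjusted p = 0.000689), which made 4 angiopoietin-TIE genes higher in articular cartilage. Calls rose over all genes too, from 2799 to 3344 toward articular and from 2745 to 3484 toward xiphoid cartilage. No call of the other 9 members changed with the block.

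With all 42 tested endothelial genes as the reference, the log2 differences in the ratios were -0.68 for Tek, -0.30 for Tie1, 0.17 for Angpt2, -0.86 for Pecam1, -1.12 for Esam, -0.03 for Emcn, -0.66 for Plvap, 0.40 for Vwf and -0.78 for Egfl7. Apln made up 40.4% and 33.3% of that sum in articular and 0.354% and 0.43% in xiphoid cartilage. Without Apln, a choice made after seeing the data, they were -0.02, 0.36, 0.83, -0.20, -0.46, 0.63, 0.00, 1.06 and -0.12. Ratios per kilobase were not run, as no transcript lengths were used. Depth limits Angpt2, with 33 to 47 counts a library, and the size of the Angpt1 fold, with 8 and 18 counts in xiphoid cartilage.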

Other observations

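The marker list of cells that wrap vessels, a known source of angiopoietin 1, held genes called toward either tissue. Which cells gave the reads of these genes was not tested. Of 15 pericyte and smooth muscle genes tested, 7 were called toward xiphoid and 4 toward articular cartilage, while 4 did not pass, 73.3% called against 49.5% of all genes tested (edgeR, adjusted p under 0.05). The contractile and filament genes Des, Acta2, Tagln, Myh11 and Cnn1, with Mcam and Higd1b, lay toward xiphoid cartilage. Acta2, smooth muscle actin, was at 34.9 and 47.4 CPM there against 5.98 and 6.94 CPM in articular cartilage, and Des is also abundant in skeletal muscle. Toward articular cartilage lay Cox4i2 and Ndufa4l2, subunits or relatives of respiratory chain proteins, with the potassium channel regulator Abcc9 and the G protein regulator Rgs5. Cox4i2 was at 273 and 422 against 52.3 and 68.2 CPM, and Ndufa4l2 at 624 and 546 against 215 and 266 CPM. Pdgfrb, a receptor listed here as a pericyte marker, was at 43.5 and 42.6 against 43.7 and 45.1 CPM. It did not pass (log2 fold change -0.04, SE 0.16, adjusted p = 0.844 by edgeR), and neither did Cspg4, Notch3 and Kcnj8. These genes were named after their values were seen.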
